A study of Danio rerio with 6 samples.

Results

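The regenerating apical ventricle of control zebrafish was described here at 7 days post amputation (dpa), from the 3 control libraries of a series of 6. A library was chosen by its label as a control, no measured value was used, and the 3 other libraries, in which tbx20 was overexpressed in the myocardium, were not analysed here. Each library was made from a pool of apices of 6, 8 and 8 hearts, called pools 1, 2 and 3 below. The fish were adults of strain AB. As the study's methods describe the line, they carried the responder transgene Tg(TRE3G:tbx20-E2A-mCherry; cryaa:EGFP), in which a doxycycline-dependent promoter drives tbx20, without the cmlc2:TetON-3G driver that would switch it on in cardiomyocytes. They received doxycycline daily, starting 1 day ahead of the amputation of the ventricular apex. Because hearts were pooled, the spread between pools is not the spread between fish, and nothing in the labels says whether the pools came from separate clutches or days, so it may be technical in part.

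The zebrafish heart replaces amputated muscle. Cardiomyocytes next to the wound loosen their sarcomeres, re-enter the cell cycle and divide, while the epicardium (the outer cell layer), the endocardium (the inner lining), fibroblasts and macrophages surround and clear the wound and lay down a transient matrix of fibronectin and collagen. A piece of apex at this stage therefore holds working ventricle together with wound border and new tissue. In such bulk RNA, fewer cells of a type and less RNA per cell cannot be told apart.

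The table listed 31701 genes with raw counts and FPKM, the count scaled by exonic length and by library total. The total counts were 13218054, 17754483 and 17324748. A count was seen in all 3 pools for 18688 genes and in none for 8463, and 11139 genes stood at 1 FPKM or more in all 3 pools. Of the genes, 566 reached a mean of 100 FPKM, 56 reached 1000 FPKM and 8 reached 10000 FPKM. The 100 genes with the most counts took 46.4% ± 3.61 (SD, n = 3) of all counts. The pools were distinct libraries: between any 2 of them, counts differed by 45.2 to 63.9 times the variance expected from sampling alone (chi-square per degree of freedom), and Pearson's r of log2(FPKM + 1) across 12619 genes with a mean of 1 FPKM or more lay between 0.959 and 0.964, where genes are not independent replicates. On the FPKM scale the median gene of pool 2 stood 0.20 log2 units under pool 1 and that of pool 3 stood 0.16 above it, so the order of the pools is also given on the TMM scale, which sets the bulk of genes equal (median shifts of at most 0.06 log2 units).

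Mitochondrially encoded transcripts, sarcomere transcripts and ribosomal protein transcripts were the largest classes by FPKM. The 13 mitochondrially encoded protein genes took 31.6% ± 3.19 (SD, n = 3) of the summed FPKM, or 33.0%, 33.8% and 27.9% in pools 1, 2 and 3. Sarcomere genes followed with 9.27% ± 0.836 (SD, n = 3), cytosolic ribosomal proteins with 8.69% ± 0.651 (SD, n = 3), genes of muscle energy metabolism with 7.24% ± 0.736 (SD, n = 3) and the nuclear genes of the respiratory chain with 4.76% ± 0.239 (SD, n = 3). Matrix genes took 0.629% ± 0.0369 (SD, n = 3), immune genes 0.523% ± 0.139 (SD, n = 3) and erythrocyte genes 0.227% ± 0.0342 (SD, n = 3). Since FPKM divides by length, long genes weigh more by counts. Matrix genes held 1.99% of counts, sarcomere genes 11.1% and immediate early and stress genes 0.799%. In the last class the abundant chaperone genes hsp90ab1 and hspa8 have 3533 and 2570 exonic bases, whereas fosab has 1699 and junbb 1405. Classes of short genes weigh less, with the mitochondrially encoded genes at 18.7% of counts, ribosomal proteins at 5.61% and the nuclear respiratory genes at 3.1%, and energy metabolism, at 7.12%, ranked above ribosomal proteins by counts.

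**Figure D1:**
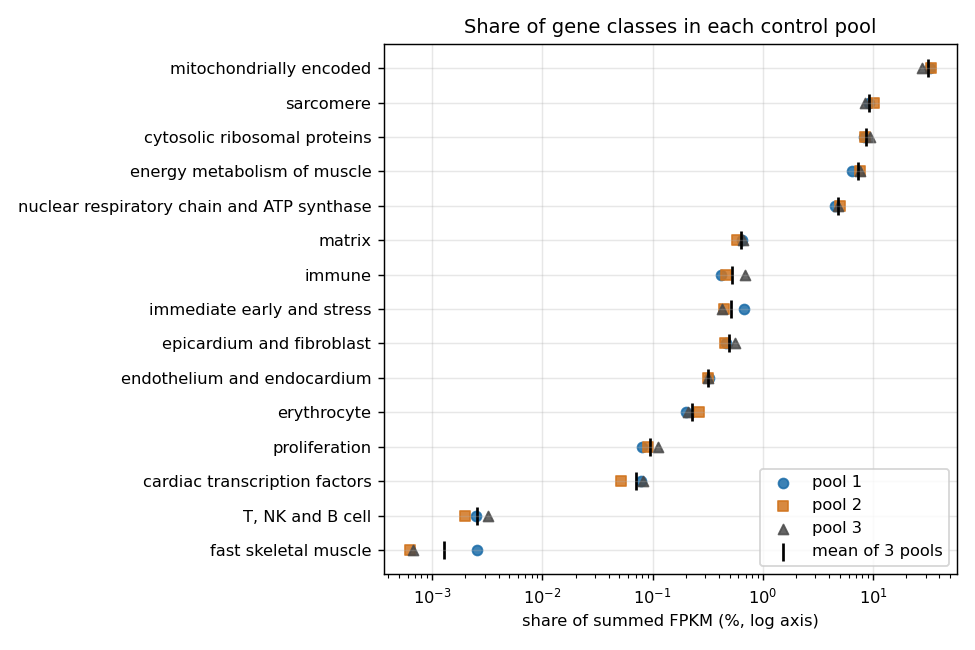
Share of the summed FPKM (percent, log axis) held by gene classes in each of the 3 control pools (coloured markers) and their mean (black tick). Classes run from mitochondrially encoded genes, at 31.6%, down to fast skeletal muscle genes, at 0.0013%. The pools lie close together for most classes. They lie further apart for the immune, immediate early, T, NK and B cell, cardiac transcription factor and fast skeletal muscle classes.

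The most abundant transcript was mt-co1, a subunit of cytochrome c oxidase, at 37827, 42526 and 36460.0 FPKM in pools 1, 2 and 3, next to mt-co2 at 40907, 40413 and 35184 FPKM. The 3 oxidase subunits mt-co1, mt-co2 and mt-co3 together made up 57.4% ± 2.2 (SD, n = 3) of the FPKM of the mitochondrially encoded class. Among the 25 genes of highest mean FPKM, which held 44.5% ± 3.77 (SD, n = 3) of the summed FPKM, 11 were mitochondrially encoded, 8 belonged to the sarcomere lists and 4 to the energy metabolism list. The 2 others were eef1a1l2, a translation elongation factor, at 2840.3, 2938 and 2914 FPKM, and the natriuretic peptide gene nppa. The first nuclear genes were mb, the oxygen-binding myoglobin, at 8607, 13829 and 10901 FPKM, and slc25a5, the ADP/ATP carrier of the inner mitochondrial membrane, at 9235, 11031 and 11305 FPKM. Pool 1 was the lowest of the 3 for both. By mean count the order was led by mt-co1, mt-co2 and then vmhcl, a ventricular myosin heavy chain with 6746 bases of exon, at 331354, 488386 and 368296 counts, and 22 of the 25 genes stayed among the first 25.

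**Figure D2:**
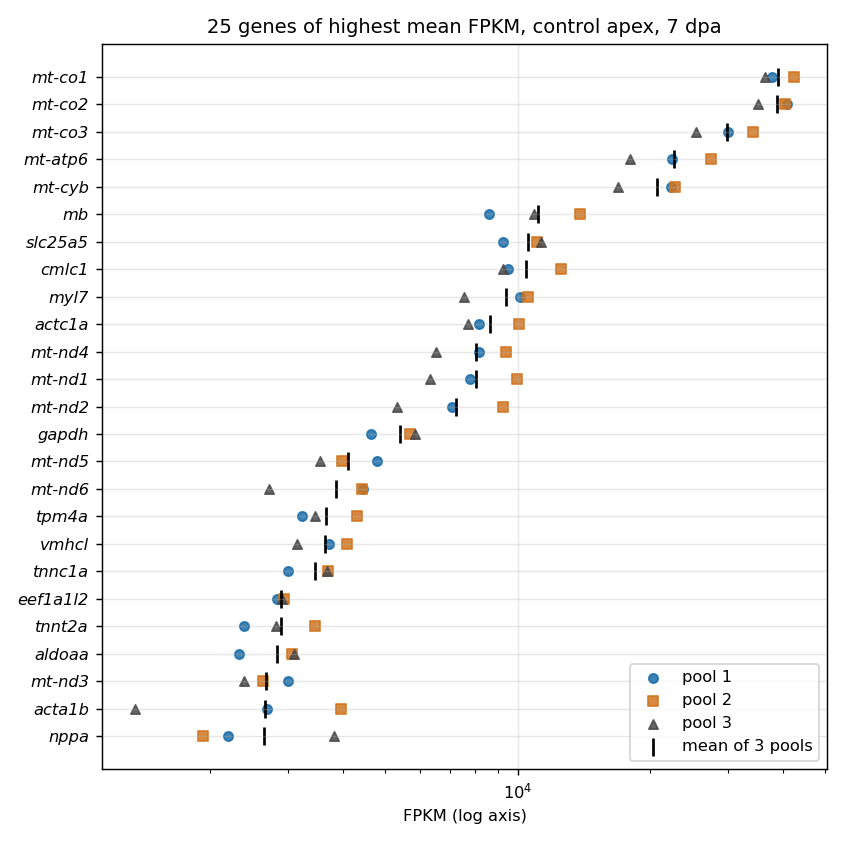
FPKM (log axis) of the 25 genes with the highest mean in the control apex, in each of the 3 pools (coloured markers) with their mean (black tick). Pool 3 is the lowest for every mitochondrially encoded gene shown, while nppa is highest and acta1b lowest in pool 3.

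Within the mitochondrially encoded class, levels ran from mt-co1 down to mt-atp8, an ATP synthase subunit, at 1595, 732 and 1373 FPKM. None of the 13 genes was highest in pool 3 on either scale. Pool 2 was the highest of the 3 for 10 of 13 on the TMM scale, and the exceptions mt-nd5, mt-nd4l and mt-atp8 were highest in pool 1. The subunit mt-nd4l of respiratory complex I stood at 2857, 1420.0 and 1843 FPKM, a gene for which pool 2 was the lowest.

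Cardiac isoforms dominated the thick filament. The essential light chain cmlc1 stood at 9510.5, 12503 and 9231 FPKM and the regulatory light chain myl7 at 10128, 10544 and 7558 FPKM. The heavy chain vmhcl stood at 3716, 4078 and 3151 FPKM and its close neighbour vmhc at 282, 275 and 135 FPKM, a ratio of 13.2, 14.8 and 23.4 in the 3 pools. Pool 3 was lowest for all 4 genes. The atrial heavy chain myh6 stood at 39.2, 17.5 and 8.91 FPKM, so vmhcl exceeded it 94.7, 233 and 354 times. Near-identical heavy chain genes can share reads and the handling of such reads is not stated, so the split between vmhcl and vmhc is uncertain. Mybpc3, the cardiac myosin-binding protein C, was at 884, 865 and 859.8 FPKM, a range that widened to 1.3-fold on the TMM scale, and mylk3, the cardiac kinase of the regulatory light chain, stood at 109, 121 and 75 FPKM.

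The thin filament was led by the cardiac actin actc1a at 8139, 10074 and 7682 FPKM, tropomyosin tpm4a at 3222, 4317 and 3453 FPKM, and the troponin subunits tnnc1a at 3002, 3704 and 3674 FPKM and tnnt2a at 2390.0, 3454 and 2821 FPKM. These 4 genes were all highest in pool 2. The actins acta1b and acta1a, named for skeletal muscle, varied more, at 2683, 3960.0 and 1346 FPKM and 478, 691 and 189.8 FPKM, with pool 2 highest and pool 3 lowest. The gene listed as ACTC1 (1 of many) with the identifier ENSDARG00000057911 had the same order, at 971, 1099 and 126 FPKM. Actin genes are close copies, so how their reads were divided is uncertain.

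Titin, the Z-disc and the M-band anchor the filaments. Of their 35 genes, 32 stood at 1 FPKM or more in all pools, against 11139 of all 31701 genes. The highest were the small heat shock protein hspb7, which guards cardiac filaments, at 1181, 918 and 1246 FPKM, the alpha-actinin actn2b at 1145, 924 and 1177 FPKM and the intermediate filament desma at 817, 864 and 1127 FPKM. Myom1b, an M-band protein, was at 337, 165 and 200.4 FPKM, highest in pool 1.

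The calcium handling list held the pumps, exchangers and stores that drive each beat. The sarcoplasmic calcium pump atp2a2a stood at 617, 748 and 679 FPKM and its inhibitor phospholamban, listed as CR926459.1 and named pln1 in the name table, at 526, 518 and 711 FPKM. The sodium-calcium exchanger slc8a1a was at 372, 326 and 303 FPKM and the calcium store protein casq2 at 239, 329.7 and 274 FPKM. Of 16 genes of this list with a mean of at least 10 FPKM and 100 counts, 1 differed over 2-fold between its highest and lowest pool on the FPKM scale and 0 on the TMM scale. Over all 4124 such genes, called rated genes below, the share was 12.1% on the FPKM scale and 11.2% on the TMM scale.

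The natriuretic peptide genes nppa and nppb, which cardiomyocytes express under load, are marked in fetal and border zone muscle. They were the highest of the list of fetal and wound border genes, though bulk RNA does not show where in the apex they were expressed. Nppa was at 2189, 1923 and 3812 FPKM and nppb at 1037, 826 and 672 FPKM, so that nppa exceeded nppb 2.11, 2.33 and 5.68 times. In pool 3 nppa was at its highest and nppb at its lowest. Other genes linked to dedifferentiated or wound border muscle were lower. Acta2, smooth muscle actin, stood at 84.7, 98.7 and 61.1 FPKM, ankrd1a, a stress-responsive sarcomere protein, at 17, 12 and 3.21 FPKM, and runx1, a transcription factor of blood and of injured muscle, at 3.01, 1.37 and 2.94 FPKM.

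Among the cardiac transcription factors gata5 stood highest, at 92.1, 79.6 and 124 FPKM, followed by hand2 at 92.2, 65.1 and 94 FPKM and nkx2.5 at 65.2, 66.8 and 95.7 FPKM. Gata4 was far lower, at 13.7, 3.75 and 4.73 FPKM, and gata5 exceeded it 6.71, 21.2 and 26.2 times in the 3 pools. The T-box factors tbx5a, tbx5b and tbx20 had the widest spread of this list, whereas their relative tbx2b was even, at 3.38, 3.06 and 3.62 FPKM. Tbx20 itself, the gene of the responder transgene, stood at 17.9, 3.02 and 9.61 FPKM (502, 114 and 354 counts), where reads from the transgene and from the gene of the fish cannot be told apart. Tbx5a was at 17.6, 1.83 and 13.1 FPKM and tbx5b at 5.97, 1.0 and 4.13 FPKM. For tbx20, tbx5a and tbx5b the order was the same: pool 1 was highest and pool 2 lowest, also on the TMM scale. Pool 2 was low for long genes in general: on the TMM scale the median of the 369 genes with 8000 or more exonic bases stood at 0.25 in pool 1 and -0.19 in pool 2, in log2 units around the mean of the pools, whereas these T-box genes, of 2126, 3049 and 1636 exonic bases, fall into bins of length with smaller shifts (-0.13 and 0.09 from 1000 to 2000 bases, -0.05 and 0.02 from 2000 to 4000 bases, for pools 1 and 2). The part of transcript length in the result was not tested.

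Metabolic genes were abundant. Besides mb and slc25a5, the glycolytic enzymes gapdh and aldoaa stood at 4630.0, 5683 and 5847 FPKM and 2320.1, 3072 and 3094 FPKM, the muscle creatine kinase ckma at 2121, 2201 and 1779 FPKM, and the mitochondrial malate dehydrogenase mdh2 at 1517, 1696 and 1589 FPKM. The fatty acid binding protein fabp3, which carries fatty acids in heart muscle, was at 774, 783 and 865 FPKM and the lactate dehydrogenase ldhba, of the heart type, at 865, 904 and 1145 FPKM. Of the 33 rated genes of the list, 1 differed over 2-fold between pools on the FPKM scale and 3 on the TMM scale (12.1% and 11.2% of all rated genes), and mb spread by 1.61-fold on the first and 1.92-fold on the second.

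Of 98 nuclear respiratory chain and ATP synthase genes, 95 stood at 1 FPKM or more in all pools, against 11139 of all 31701 genes. The highest were the ATP synthase subunits atp5b at 1864, 2416 and 2060.3 FPKM and atp5a1 at 1477, 1964 and 1684 FPKM, and cox6a2, the muscle form of a cytochrome c oxidase subunit, at 1119.9, 1423 and 990.1 FPKM. On the TMM scale 88 of 95 were highest in pool 2, as were 65 of 84 ribosomal protein genes and 29 of 33 energy metabolism genes, against 35.9% of all 12619 genes. Their medians in pool 2 were 0.33, 0.21 and 0.28 log2 units around the mean of the pools. All genes of 500 to 1000 exonic bases had medians of 0.12 in pool 2 and -0.14 in pool 1. Genes of 1000 to 2000 bases stood at 0.09 and -0.13, and genes under 500 bases at -0.003 and 0.12. Cox6a2 has 714 exonic bases and rpl26 has 588. The part of length in the lead of pool 2 was not tested. On the FPKM scale, 59 of 95 respiratory genes and 27 of 84 ribosomal protein genes were highest in pool 2, against 13.7% of all genes. The direction for the summed ribosomal class turned from pool 3 highest (FPKM) to pool 2 highest (TMM). The matrix, antigen presentation, leukocyte, proliferation, epicardium and fibroblast, and titin, Z-disc and M-band sums turned in the same way. The cardiac transcription factor sum turned from pool 3 to pool 1. The growth factor, bulbus and outflow, and gut and pancreas sums turned from pool 1 to pool 2. The ribosomal protein genes were all above 1 FPKM, led by rplp0 at 1536, 1844 and 1889 FPKM and rpl26 at 1389, 1677 and 1633 FPKM.

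Matrix genes were led by fibronectin and type I collagen. Fn1b, the fibronectin gene of the wound matrix, stood at 489.7, 314 and 403 FPKM and its paralog fn1a at 88.5, 73.5 and 119 FPKM, a ratio of 5.53, 4.28 and 3.39. The type I collagen genes col1a1a, col1a1b and col1a2 summed to 623, 1089 and 1010.5 FPKM, with col1a1b at 228, 404 and 368 FPKM. Pool 1 was the highest pool for fn1b and the lowest for the type I collagens, and this order was kept on the TMM scale for fn1b and col1a1b. Dcn, the collagen-binding proteoglycan decorin, was at 281, 244 and 265 FPKM, the collagen chaperone sparc at 211, 271 and 255 FPKM and the fibroblast matrix protein postnb at 129.7, 162 and 138 FPKM. Cyr61, a matricellular protein that is induced early by stretch and serum, was at 346, 139 and 96.6 FPKM, again highest in pool 1. Of 75 matrix genes, 58 stood at 1 FPKM or more in all pools, against 11139 of all 31701 genes. Their summed share was 0.642%, 0.587% and 0.657%, and which pool was highest turned with the scale (pool 3 by FPKM, pool 2 by TMM).

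Epicardial and fibroblast genes were present at 0.492% ± 0.0597 (SD, n = 3) of the summed FPKM. The keratins krt8 and krt94, of epithelial cells, led them at 963, 927 and 1050.5 FPKM and 671, 839 and 975 FPKM, followed by the growth factor mdka at 255, 322 and 306 FPKM. Together krt8 and krt94 made up most of the class, so its share mainly reflects these keratins. The epicardial transcription factors tcf21, wt1b and tbx18 stood at 25.9, 23.8 and 31.9 FPKM, 17.3, 14.7 and 19.4 FPKM and 18.9, 8.81 and 19.4 FPKM, and aldh1a2, the retinoic acid-making enzyme of activated epicardium and endocardium, at 71.7, 51.6 and 94.7 FPKM. Tbx18 was lowest in pool 2, like tbx20. On the FPKM scale, so were 12 of the 18 genes of this list with a mean of 1 FPKM or more, and 7402 of all 12619 such genes.

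Endothelial and endocardial genes held 0.324%, 0.318% and 0.317% of the summed FPKM, a class ratio of 1.07 between the highest and lowest pool that widened to 1.39 on the TMM scale. The water channel aqp8a.1 was the highest at 931, 1165 and 577 FPKM, and the secreted proteoglycan spock3 was highest where aqp8a.1 was lowest, in pool 3, at 211, 268 and 532 FPKM. Together these 2 genes made up most of the class. Kdrl, a vascular endothelial growth factor receptor, stood at 44.6, 35.9 and 50.7 FPKM, cdh5, the endothelial cadherin, at 41.9, 34.6 and 39.6 FPKM, and vwf, von Willebrand factor, at 41.7, 13 and 29.4 FPKM. The BMP target id1 was at 35.7, 64.8 and 66.3 FPKM and its relative id2b at 29.2, 31.5 and 55.8 FPKM, whereas the ligand bmp6 was low at 3.67, 2.01 and 2.87 FPKM. Of the 24 rated endothelial genes, 10 differed over 2-fold between pools on the FPKM scale and 8 on the TMM scale, against 12.1% and 11.2% of all rated genes. Without pools 1, 2 and 3 in turn the FPKM count was 4, 4 and 7, against 7.23%, 5.55% and 5.72% of all rated genes.

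Smooth muscle genes were led by tagln, an actin-binding protein, at 322, 479 and 194 FPKM, which with acta2 exceeded all other members. Cnn1b, a calponin of smooth muscle, stood at 39.2, 16 and 11.9 FPKM, and myh11a, the smooth muscle myosin heavy chain, at 5.72, 6.25 and 5.51 FPKM. The elastins elna and elnb, which build the outflow tract wall in zebrafish, were at 9.78, 2.93 and 7.9 FPKM and 4.4, 0.75 and 7.16 FPKM.

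The immune class was formed mainly by antigen presentation and macrophage genes. B2m, the light chain of class I molecules, stood at 346, 469 and 687 FPKM, the invariant chain cd74a at 364, 363 and 292 FPKM and the class I gene mhc1uba at 209, 368 and 288 FPKM. The macrophage genes lgmn, a lysosomal protease, and mpeg1.1, a pore-forming protein, were at 81.1, 83.9 and 161 FPKM and 18.5, 27.7 and 37.6 FPKM. The complement genes c1qa, c1qb and c1qc, made by macrophages, summed to 138, 156 and 200.2 FPKM. Granulin genes separated pool 3 from the others: grn1 stood at 49.5, 46.7 and 256 FPKM and grn2 at 5.22, 5.75 and 71.4 FPKM.

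Neutrophil genes were lower. The azurophil granule enzyme mpx stood at 0.58, 1.14 and 4.66 FPKM, the lysozyme lyz at 3.26, 2.34 and 17.3 FPKM and the gelatinase mmp9 at 2.87, 3.34 and 10.3 FPKM. The collagenase mmp13a stood at 0.85, 1.25 and 11.6 FPKM (35, 69 and 623 counts). All 4 genes were highest in pool 3. The neutrophil list was led by srgn, a granule proteoglycan of several blood cells, at 92.6, 86.2 and 162 FPKM. Over the list, 9 of 11 genes with a mean of 1 FPKM or more were highest in pool 3 on either scale, against 55.9% of all genes on the FPKM scale and 34.3% on the TMM scale.

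The immune class as a whole took 0.421%, 0.467% and 0.682% of the summed FPKM, and pool 3 was the highest and pool 1 the lowest on each of the 4 scales used (total count, TMM, DESeq2 size factors, and total without mitochondrially encoded genes). On the TMM scale the sums were 2380.4, 3344 and 3536 FPKM, and the lead of pool 3 over pool 2 was about the size of that of grn1 alone (54.0 in pool 2 and 229 in pool 3). By sum, the antigen presentation genes and the genes common to leukocytes were highest in pool 2 with TMM and DESeq2 factors. By gene, 12 of 18 and 8 of 14 of them were highest in pool 3 on the TMM scale, against 34.3% of all genes. On the TMM scale 43 of 68 immune genes were highest in pool 3, against 34.3% of all genes. Lymphocyte genes were low. The 26 genes of T, NK and B cells together took 0.00248%, 0.00199% and 0.00319% of the summed FPKM. Of them, 2 stood at 1 FPKM or more in all pools, against 11139 of all 31701 genes. These 2 were cd3eap, which despite its symbol is not a T cell receptor gene but an RNA polymerase subunit, and gata3, which other cells also express. The T cell kinase lck stood at 0.11, 0.21 and 0.76 FPKM and the B cell receptor component cd79a at 0.88, 0.74 and 1.09 FPKM.

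The listed erythrocyte genes held a small share of the summed FPKM, as given above. The 5 adult globin genes summed to 969.6, 1459.9 and 1076 FPKM, and the 9 embryonic globin genes to 0.17, 0.83 and 0.32 FPKM. Hbaa1, an adult alpha globin, stood at 371, 830.3 and 342 FPKM and hbaa2 at 14.2, 113 and 35.8 FPKM, and both were highest in pool 2. The 2 identifiers named hbba1, adult beta globin, were at 289.6, 200.3 and 324 FPKM and 255, 203 and 296 FPKM, lowest in pool 2. Globin genes are near-identical copies, so the split of their reads is uncertain. Because the handling of shared reads is not given, their total and their ratio to other genes are uncertain as well. Alas2, the first enzyme of heme synthesis in erythrocytes, was at 37.7, 33.3 and 19.7 FPKM and the red cell anion exchanger slc4a1a at 12.7, 17.3 and 16.4 FPKM. Myoglobin exceeded hbaa1 by 23.2, 16.7 and 31.9 times.

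Among clotting genes f13a1a.1, a coagulation factor XIII A subunit gene, had the widest spread of the 4124 rated genes, at 120.3, 27.6 and 1.66 FPKM (5633, 1736 and 102 counts). The paralog f13a1b had its highest level where f13a1a.1 was lowest, at 16, 12.7 and 31.4 FPKM. Thrombocyte genes were low, with the integrin itga2b at 3.74, 5.41 and 7.12 FPKM.

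The 32 proliferation genes, of which 31 had a mean of 1 FPKM or more, had a median of 5.62 FPKM. The median was 0.297 FPKM for all genes and 5.63 FPKM for all genes with a mean of 1 FPKM or more. The highest was the chromatin protein hmgb2a at 151, 203 and 259.8 FPKM. The replication clamp pcna stood at 47.8, 45.2 and 53.6 FPKM, the helicase subunit mcm2 at 16.3, 14.8 and 15.7 FPKM, and the mitotic kinase cdk1 at 9.3, 13.3 and 14.8 FPKM. Ccnb1, the cyclin that activates it, was at 2.4, 3.41 and 5.98 FPKM, and the G1 cyclin ccnd1 and its kinase cdk4 were at 2.39, 3.01 and 4.97 FPKM and 4.85, 3.61 and 6.15 FPKM. Of 32 genes, 29 stood at 1 FPKM or more in all pools, against 11139 of all 31701 genes. Cdk1, ccnb1 and ccnd1 were highest in pool 3 and lowest in pool 1 on the FPKM scale, whereas cdk1 was highest in pool 2 on the TMM scale.

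Growth factors and injury signals were led by mdka, named above, tgfb3 at 81, 85.3 and 70.7 FPKM and vegfab at 57.6, 65.1 and 61 FPKM. The following 3 signals had their lowest value in pool 2: tgfb2 at 56.1, 7.75 and 26.4 FPKM, the trabecular ligand bmp10 at 39.8, 9.19 and 29.1 FPKM and the cytokine il11a at 23.2, 3.75 and 7.42 FPKM. Most genes did so on the FPKM scale: 7402 of all 12619 genes with a mean of 1 FPKM or more. On the TMM scale 4433 of the 12619 were lowest in pool 2. Of the 34 such genes of this list, 19 were lowest in pool 2 on the FPKM scale and 11 on the TMM scale, near the shares of all genes. Lepb, leptin b, which is induced in injured zebrafish hearts, stood at 16.4, 12.8 and 6.76 FPKM, and the mitogen gene hbegfb at 3.3, 5.35 and 4.76 FPKM.

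Immediate early genes, which cells switch on within minutes of stimulation, differed widely between the pools. The share of immediate early and stress genes was 0.668%, 0.447% and 0.425%. The AP-1 genes fosab and junbb stood at 437, 191 and 124 FPKM and 219, 113 and 75.7 FPKM, the phosphatase dusp1 at 203, 84 and 77.4 FPKM and the nuclear receptor nr4a1 at 231, 47.6 and 37.4 FPKM. Pool 1 was highest in each. Atf3, a stress-induced transcription factor, was at 135, 107 and 11.8 FPKM and nr4a3 at 72.6, 108 and 3.06 FPKM, so that for these genes pools 1 and 2 stood together above pool 3. On the TMM scale 25 of 28 genes of the class were highest in pool 1 and 0 in pool 3, against 29.8% and 34.3% of all genes, and the FPKM scale also put 25 in pool 1. The constitutive chaperones of the list behaved differently, with hsp90ab1 at 758, 784 and 819.6 FPKM and hspa8 at 667, 739.9 and 676 FPKM. Of the 18 rated genes of the class, 10 differed over 2-fold between pools on the FPKM scale and 12 on the TMM scale, against 12.1% and 11.2% of all rated genes. Without pools 1, 2 and 3 in turn the FPKM count was 2, 9 and 6, against 7.23%, 5.55% and 5.72%. Pool 1 was also the pool of fewest hearts and fewest counts, and the part of the number of hearts or of depth in the result was not tested.

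**Figure D3:**
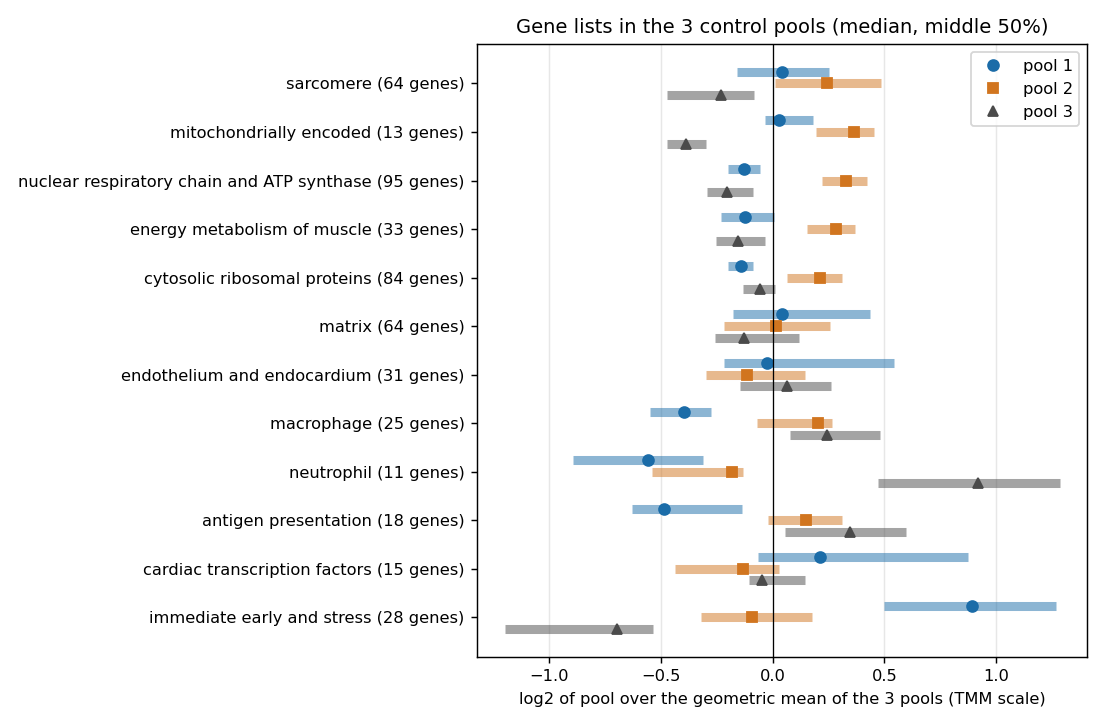
Log2 of the level in a pool over the geometric mean of the 3 pools, on the TMM scale, for members of 12 lists with a mean of 1 FPKM or more. Markers give the median of the members and bars their middle 50%. Immediate early and stress genes sit at a median of 0.89 in pool 1 and -0.69 in pool 3, neutrophil genes at 0.92 in pool 3, and the nuclear respiratory genes at 0.33 in pool 2.

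Genes listed for the neighbouring heart chambers were detected in part, which does not show that tissue of these chambers was included. The atrial list held 0.453% ± 0.183 (SD, n = 3) of the summed FPKM. Nearly all of it was nppa, which is also in the list of fetal and wound border genes. Myh6 and nppa were as given above, and the transcription factor nr2f2 of this list stood at 5.6, 5.84 and 8.65 FPKM. Of 6 atrial genes, 5 stood at 1 FPKM or more in all pools, against 11139 of all 31701 genes. Of 5 bulbus and outflow genes 3 did so, dcn, elna and mylka, of which dcn is also a fibroblast gene. Marker genes of tissues outside the heart were mostly under 1 FPKM. Of the 24 genes of fast skeletal muscle, 0 reached 1 FPKM in all pools, and their share was 0.00257%, 0.00063% and 0.000664%, where pool 1 was highest. The fast light chain gene mylpfa stood at 2.38, 0.52 and 0.45 FPKM. No lens or germ line gene reached 1 FPKM in all pools. The lens crystallin cryaa, whose promoter drives the eye marker of the transgene, had 0 counts in each pool, which allows up to 3 counts in each (counting error only). There were 2 genes of these lists that stood apart from their companions: tfa, the iron carrier transferrin of the liver list, at 103, 145 and 130.3 FPKM while fabp10a, the liver fatty acid binding protein, was at 0.29, 0.11 and 0.44 FPKM, and ctrb1, a chymotrypsinogen, at 28.4, 28.4 and 18.3 FPKM while the trypsin gene try was at 0.84, 0.57 and 1.33 FPKM. The myelin gene mbpb led the neural list at 3.22, 4.82 and 4.92 FPKM. Against this, the ventricular myosin, cardiac troponin and cardiac actin genes vmhcl, tnnt2a and actc1a were each above 1000 FPKM in every pool, so the tissue label was met by its defining genes.

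**Figure D4:**
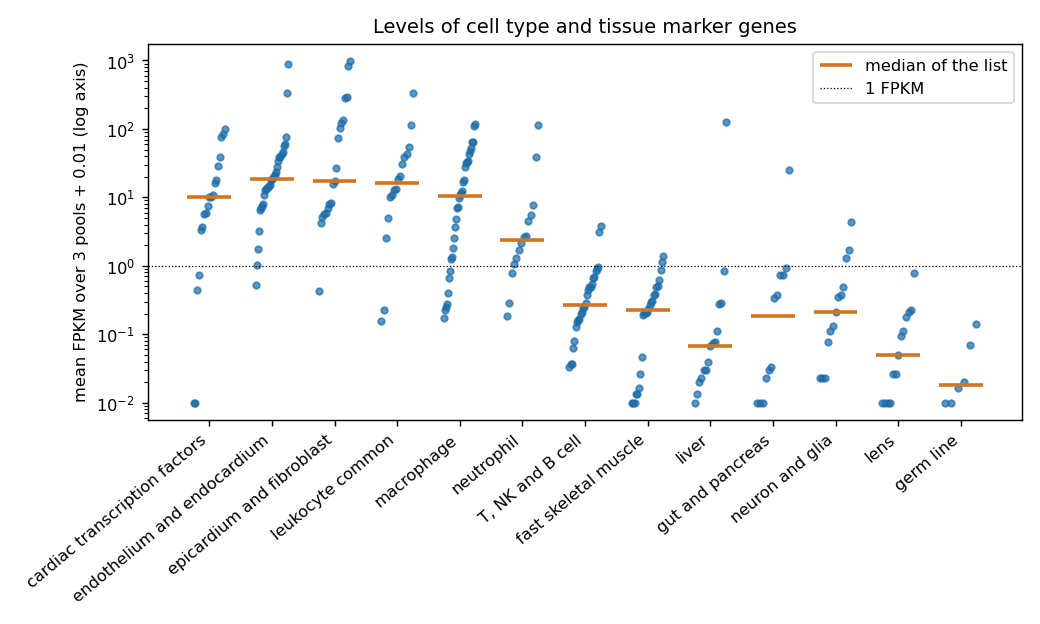
Mean FPKM over the 3 pools, plus 0.01, on a log axis for each marker gene (points) of 13 lists, with the median of the list (bar) and a dotted line at 1 FPKM. Cardiac, endothelial, epicardial and macrophage markers lie mostly above 1 FPKM, and lymphocyte, fast skeletal muscle, liver, gut, neural, lens and germ line markers mostly below it.

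Over all genes with a mean of 1 FPKM or more, the median coefficient of variation (CV, the SD over the 3 pools divided by their mean) was 0.233, and the median expected from counting alone was 0.0651. The CV was at or under its counting value for 787 of 12619 genes, or 6.24%. The spread narrowed with level, from a median CV of 0.316 between 1 and 3 FPKM to 0.121 between 300 and 1000 FPKM, and stood at 0.154 at 1000 FPKM or more. The CV differed between classes, which also differed in level. The median CV was 0.106 for ribosomal proteins, 0.12 for nuclear respiratory genes and 0.123 for energy metabolism. It was 0.212 for the sarcomere, 0.255 for the matrix, 0.342 for macrophage genes, 0.619 for immediate early and stress genes and 0.756 for neutrophil genes. The median level over all list members was 595 FPKM for ribosomal proteins, 174 for nuclear respiratory, 37.4 for immediate early and stress, 10.4 for macrophage and 2.39 for neutrophil genes. The CVs covered only members with a mean of 1 FPKM or more. These were 84 of 84, 95 of 98, 28 of 31, 25 of 32 and 11 of 14 in the same order. Of the neutrophil list only 2 genes were rated, and 0 of them differed over 2-fold.

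**Figure D5:**
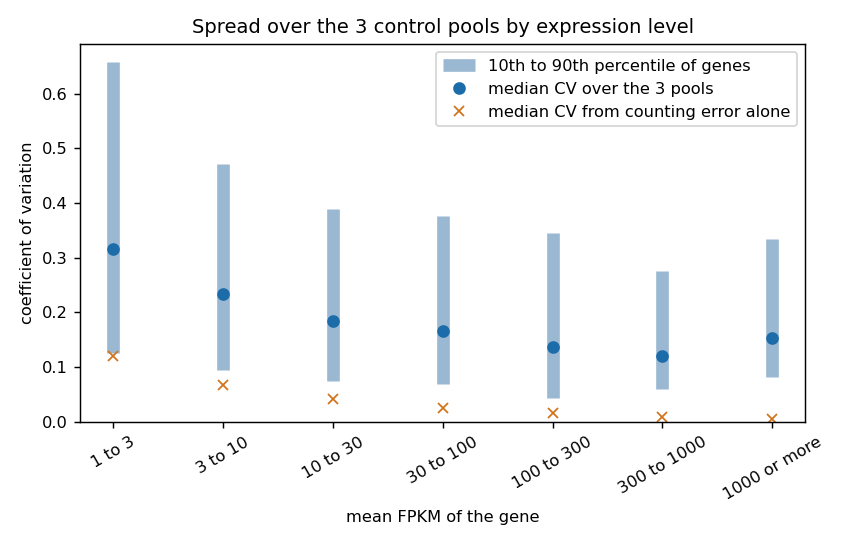
Coefficient of variation over the 3 control pools for genes binned by mean FPKM (median, circle, with a bar from the 10th to the 90th percentile of genes) beside the value that counting error alone would give (cross). The median falls from 0.316 in the lowest bin to 0.121 between 300 and 1000 FPKM, and lies above the counting value in every bin.

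Of the 4124 rated genes, 501 had a highest pool over 2 times the lowest on the FPKM scale (12.1%). The members past it were 0 of 91 rated nuclear respiratory genes, 1 of 84 ribosomal protein genes, 1 of 33 energy metabolism genes, 11 of 50 sarcomere genes, 8 of 44 matrix genes and 17 of 41 immune genes. On the TMM scale, where 11.2% of all rated genes were past it, these counts were 3 of 91, 0 of 84, 3 of 33, 13 of 50, 11 of 44 and 12 of 41. On the FPKM scale, of the immune genes 7, 14 and 1 were past it without pools 1, 2 and 3 in turn, and of the 16 rated macrophage genes, 8 with all pools and 4, 8 and 0, so both counts were lowest without pool 3. For all rated genes the counts were 298, 229 and 236 (7.23%, 5.55% and 5.72%).

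The 15 rated genes with the widest spread ran from f13a1a.1 at 72.4-fold to CABZ01052815.1 at 7.56-fold. They were highest in pool 1 for 6, in pool 2 for 3 and in pool 3 for 6, and the highest and the lowest pool were the same for all 15 on the TMM scale. Besides f13a1a.1, nr4a3, grn2, atf3, tbx5a, hbaa2 and the ACTC1 copy described above, they held hspb9, a small heat shock protein, at 22, 10.4 and 1.3 FPKM, and sele, the endothelial adhesion molecule E-selectin, at 25.6, 5.38 and 42.1 FPKM. Metazoa_SRP, the RNA of the signal recognition particle, was at 54.1, 5.29 and 13.2 FPKM, a non-coding RNA. The other 5 were BX908782.3, highest in pool 3 at 4.93, 12.4 and 85.5 FPKM, zgc:198419, SLA (1 of many), si:dkeyp-52c3.2 and CABZ01052815.1. At the other end, the 10 steadiest genes lay within 1.02-fold on the FPKM scale, among them the ribosomal protein rps16 at 352, 350.2 and 349 FPKM, the phosphofructokinase pfkmb at 172, 174 and 174 FPKM and the chaperonin subunit cct7 at 95.1, 95 and 95.9 FPKM. On the TMM scale the same 10 genes spread by 1.27- to 1.32-fold, so their evenness belongs to the FPKM scale alone.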

How the data were processed

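Poly(A) RNA of pooled apices was sequenced on an Illumina HiSeq. Per the labels and the methods, the authors trimmed reads with Trimmomatic 0.30, aligned them with HISAT2 2.0.1 to GRCz10, and deposited raw counts per gene and FPKM. How reads were counted, by strand or over several genes, is not given in the sources used here. FPKM recomputed from count, exonic length and library total lay within 0.0051 of the deposited value in 95103 of 95103 cases. The files' build has no genome here, so no coordinates or sequences are given.

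Shares, means and SDs over the 3 pools were computed with pandas 2.3.3, TMM factors with edgeR 4.0.16 and size factors with DESeq2 1.42.0. No test was run, since 1 group was described. Of 685 symbols in 29 lists, 33 had no gene in the table. Mitochondrial, ribosomal and nuclear respiratory genes were taken by symbol (rps19bp1 was left out). Named genes were the first 25 by FPKM and 10 by count, up to 6 per list beside genes the study measured, and the 15 most and 10 least variable of those with means of at least 10 FPKM and 100 counts. Other list members were named after their values were seen. Members and lists were chosen with earlier results of these data known. The calculation was tested on simulated data.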

Additional observations from a re-analysis of the deposited data

How the results depend on the processing

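Of 124 values recomputed under another setting, 70 moved by less than the spread over the pools (for counts and CVs, by less than 1.5 times) and 54 moved further. At 10 FPKM in all 3 pools, 3410 genes were detected. As a share of counts, the share of the class was 18.7% for mitochondrially encoded genes, 11.1% for sarcomere genes, 3.1% for nuclear respiratory genes, 5.61% for ribosomal protein genes, 1.99% for matrix genes, 0.153% for erythrocyte genes and 0.799% for immediate early and stress genes. With mitochondrially encoded genes taken out of the total, the share of the class was 13.6% for sarcomere genes, 10.6% for energy metabolism genes, 6.96% for nuclear respiratory genes, 12.7% for ribosomal protein genes, 0.919% for matrix genes, 0.76% for immune genes, 0.332% for erythrocyte genes and 0.754% for immediate early and stress genes. Without the 20 genes of highest FPKM, the share of the class was 1.74% for mitochondrially encoded genes, 4.67% for sarcomere genes, 4.68% for energy metabolism genes, 8.25% for nuclear respiratory genes, 15% for ribosomal protein genes, 1.09% for matrix genes, 0.899% for immune genes, 0.395% for erythrocyte genes and 0.891% for immediate early and stress genes. Without its highest member, the share of the class was 25% for mitochondrially encoded genes, 7.52% for sarcomere genes, 5.38% for energy metabolism genes, 4.4% for nuclear respiratory genes, 0.561% for matrix genes and 0.141% for erythrocyte genes. With TMM factors, the ratio of the highest to the lowest pool was 1.67 for mitochondrially encoded genes, 1.65 for sarcomere genes, 1.52 for energy metabolism genes, 1.45 for nuclear respiratory genes, 1.29 for ribosomal protein genes, 1.23 for matrix genes and 1.73 for erythrocyte genes. With DESeq2 size factors, the ratio of the highest to the lowest pool was 1.73 for mitochondrially encoded genes, 1.71 for sarcomere genes, 1.53 for energy metabolism genes, 1.5 for nuclear respiratory genes, 1.3 for ribosomal protein genes, 1.28 for matrix genes and 1.8 for erythrocyte genes. With the total without mitochondrially encoded genes, the ratio of the highest to the lowest pool was 1.02 for matrix genes. As the median over members, the ratio of the highest to the lowest pool was 1.45 for mitochondrially encoded genes, 1.5 for sarcomere genes, 1.23 for ribosomal protein genes, 1.6 for matrix genes, 2.03 for immune genes, 1.61 for erythrocyte genes and 2.87 for immediate early and stress genes. As summed FPKM it was 1.29 for mitochondrially encoded genes, 1.28 for sarcomere genes, 1.27 for energy metabolism genes, 1.17 for nuclear respiratory genes, 1.14 for ribosomal protein genes, 1.05 for matrix genes, 1.6 for immune genes, 1.39 for erythrocyte genes and 1.59 for immediate early and stress genes. By sum, matrix, ribosomal, antigen presentation and other lists turned from pool 3 highest (FPKM) to pool 2 (TMM), as given above. The shares change with the total by construction, and the cause of the other changes was not tested. Without the filter on low genes the median CV was 0.364. With each pool left out in turn, 11259 to 12145 genes stood at 1 FPKM or more, the median CV was 0.166 to 0.234, and the shares were 30.5% to 33.4% for mitochondrially encoded genes, 8.82% to 9.65% for sarcomere genes, 7.02% to 7.66% for energy metabolism genes, 4.64% to 4.88% for nuclear respiratory genes, 8.32% to 8.92% for ribosomal protein genes, 0.615% to 0.65% for matrix genes, 0.444% to 0.574% for immune genes, 0.207% to 0.239% for erythrocyte genes and 0.436% to 0.558% for immediate early and stress genes. Of the 25 most abundant genes, 22, 24, 24, 24 and 24 were kept when ranked by mean count, by median FPKM and within pools 1, 2 and 3. No paired analysis was possible because the result comes from no test. A spread over 3 pools is itself imprecise and covers pooled hearts, not single fish. Depth limits genes near 1 FPKM, where counting alone gives a median CV of 0.12 between 1 and 3 FPKM. Without molecular identifiers, counting error does not cover duplicated reads. Levels of close paralogs, such as actins and globins, depend on how the authors divided shared reads. The use of DESeq2 size factors for detection and the order of the pools under each scaling were chosen after seeing the data.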
